A study of Mus musculus with 8 samples.

Results

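The 10 genes described here are Foxf1, Foxf2, Foxl1, Foxd1, Foxd2, Barx1, Osr1, Osr2, Cntfr and Rasl11b, which were taken by symbol from the 41709 gene symbols of a mouse embryo RNA-seq table. They are grouped as mesenchymal genes reported to answer to Hedgehog signals from the epithelium of gut, face and body wall. The mutant group held 4 whole embryos at embryonic day 9.5 that were homozygous for the K399A substitution in Smo, and the WT group held 4 whole Smo+/+ embryos of the same age. Smo encodes Smoothened, the membrane protein that passes the Hedgehog signal towards the GLI transcription factors. The embryos came from crosses between heterozygous parents and from several litters, the allele was carried in every tissue of a mutant, and litter membership is not labelled. Nothing in the labels pairs the embryos, and the p-values measure the spread between single embryos.

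Sonic and Indian hedgehog are secreted by epithelia such as the gut endoderm, and the mesenchyme around them carries the receptor Patched and responds through GLI factors. In the gut wall Foxf1, Foxf2 and Foxl1 are known as forkhead transcription factors of that responding mesenchyme, and Foxf1 also acts in the extraembryonic mesoderm of allantois and yolk sac. Barx1 is a homeobox factor of stomach mesenchyme and of the first pharyngeal arch, and Osr1 and Osr2 are zinc finger factors of intermediate mesoderm, foregut, palate and tooth mesenchyme.

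The regulatory windows of Barx1 and Foxd2 are shown because these genes had the widest and one of the narrowest spreads between embryos. Promoter windows from RefSeq (GRCm38.p6), running from 250 bases before to 50 bases after a transcript start, were found for 6 of the 10 genes, 11 windows in all, of which 6 belonged to Cntfr. Only bases upstream of the annotated gene are printed, 5′ to 3′ on the gene's strand, with each CpG in capitals. The Barx1 stretch lies at chr13:48662786-48662997 on the plus strand and the Foxd2 stretch at chr4:114908899-114909148 on the minus strand.
Barx1: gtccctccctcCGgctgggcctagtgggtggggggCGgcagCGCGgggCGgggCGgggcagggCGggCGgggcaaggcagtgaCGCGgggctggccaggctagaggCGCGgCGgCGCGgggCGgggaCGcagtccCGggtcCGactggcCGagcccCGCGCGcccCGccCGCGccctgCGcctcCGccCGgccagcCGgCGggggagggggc
Foxd2: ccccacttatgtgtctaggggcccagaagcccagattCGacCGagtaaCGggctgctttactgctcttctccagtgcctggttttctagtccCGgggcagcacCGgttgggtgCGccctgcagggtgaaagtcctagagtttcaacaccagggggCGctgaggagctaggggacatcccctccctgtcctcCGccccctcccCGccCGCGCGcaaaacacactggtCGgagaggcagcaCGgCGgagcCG
The Barx1 stretch of 212 bases held 31 CpGs and was 85.4% G and C, and the Foxd2 stretch of 250 bases held 16 CpGs and was 64.4% G and C. Over whole windows of 300 bases, Barx1 held 50 CpGs and Foxd2 held 26, against a median of 7 over the 32544 distinct windows of the table. The GLI site GACCACCCA and the forkhead site TGTTTAC were searched on both strands. None of the 11 windows held GACCACCCA, exactly or with up to 1 mismatch, or TGTTTAC. Foxf1, Foxl1, Osr1 and Osr2 had no window and were not searched. Of all windows, 0.246% held GACCACCCA exactly, 6.77% held it with up to 1 mismatch and 3.66% held TGTTTAC, so windows without a match are the common case.

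None of the 10 genes was shown to differ between mutant and WT embryos. The values of the groups overlapped for every one of them, beside 7.46% of all tested genes whose groups did not overlap (3.63% higher and 3.82% lower in mutants). What stood out was the spread between embryos of 1 genotype. Among the 9 tested members the coefficient of variation in mutants was highest in Barx1, Foxl1, Osr1 and Foxf1, at 38.5% to 79%. In WT embryos it was highest in Barx1, Foxl1 and Foxf2, at 23.5% to 46.6%. Over all tested genes its median was 12.8% in mutants and 6.41% in WT embryos. The values were deposited as TPM, reads divided by gene length and scaled to the same total in each library. Behind them stood 59.05 to 60.42 M reads (M, mega) per library on annotated genes, recovered from the steps between the values. A gene was tested where it reached 1 TPM in at least 4 of the 8 embryos, which 9 of the 10 genes and 13596 genes in all did. Osr2 did not. The test was limma on log2(TPM + 1), two-sided, with Benjamini-Hochberg adjustment over all 13596 genes, and fold changes are of TPM + 1, which understates the ratio for genes of low level. At an adjusted p under 0.05, 0% of all tested genes and 0 of the 9 members were called. At an unadjusted p under 0.05, it was 13.5% of all tested genes (5.55% higher and 8% lower in mutants) and again 0 of 9 members. Limma voom on the recovered reads, a tool added after the values had been seen, called 0 genes as well. The log2 fold change was below 0 for 6 of the 9 members, against 62.3% of all tested genes, a share that was 49.5% with median-ratio scaling. The members' median log2 fold change was -0.06, beside -0.04 over all tested genes. The embryos are whole bodies, so fewer cells of a type and less RNA per cell cannot be told apart.

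**Figure D1:**
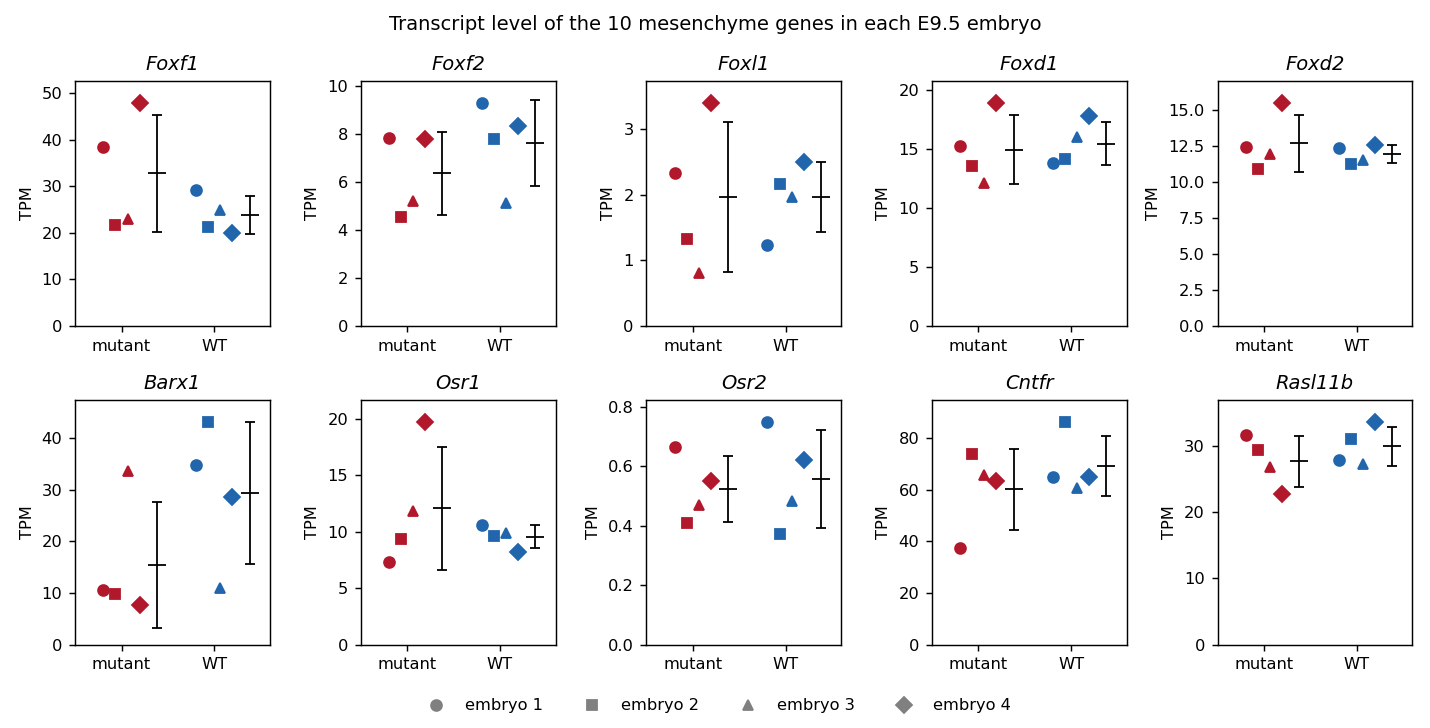
Transcript level (TPM, linear axes from 0) of the 10 genes in each of the 4 mutant (red) and 4 WT (blue) embryos, with the marker shape giving the embryo number and the black bar the mean ± SD. The groups overlap in every panel, and Barx1 has 3 mutants at 7.73 to 10.6 TPM with mutant 3 at 33.6 TPM.

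The libraries also differed in the summed levels of marker lists, whose part in the values of the 10 genes was not tested. All 20 genes of the yolk sac endoderm list were detected, and their summed level was 234 to 1548 TPM in mutants and 65.3 to 339.3 TPM in WT embryos. It was highest in mutants 1 and 2, at 1548 and 967 TPM, and in WT embryos it was highest in WT 3. The sum of 13 host genes of small nucleolar RNAs was 445.4 TPM in mutant 3 and 421.4 TPM in mutant 4, against 840.5 and 993.3 TPM in mutants 1 and 2 and 879.8 to 1065 TPM in WT embryos. The labelled tissue was whole embryo, and markers of heart (12 of 12 tested), forebrain and eye (14 of 14) and gut endoderm (13 of 14) were present in both groups.

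The order of levels was alike in the genotypes at its ends. Averaged over the 8 embryos, Cntfr was highest, at 64.7 TPM, and it exceeded the next gene, Rasl11b at 28.9 TPM, in 8 of 8 embryos. Foxf1 followed at 28.3 TPM and Barx1 at 22.4 TPM, and the neighbours Rasl11b and Foxf1, Foxf1 and Barx1, and Barx1 and Foxd1 changed places between embryos. Foxd1, at 15.2 TPM, exceeded Foxd2, at 12.3 TPM, in 8 of 8 embryos. Osr1 at 10.8 TPM and Foxf2 at 6.98 TPM came next, and Osr1 was the higher in 6 of 8 embryos. Foxl1, at 1.97 TPM, stood below Foxf2 and above Osr2 in all 8.

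The forkhead genes of gut mesenchyme came first in the comparison. Foxf1 (chromosome 8, 121084386 to 121088144, plus strand, GRCm38, GENCODE M21) is needed in splanchnic mesoderm for the vessels and muscle of gut and lung. Foxf1 stood at 38.4, 21.7, 23.0 and 47.8 TPM in mutants 1 to 4, against 29.2, 21.3, 25.0 and 20.05 TPM in WT 1 to 4. Mutants 1 and 4 lay above every WT embryo, and mutants 2 and 3 lay inside the WT range. Foxf1 averaged 32.8 ± 12.6 TPM in mutants and 23.9 ± 4.11 TPM in WT embryos (SD, n = 4 each), with a log2 fold change of 0.38 ± 0.24 (SE; limma adjusted p = 0.472) and a 95% interval from -0.16 to 0.92. Without mutant 4 the log2 fold change of Foxf1 was 0.18. The summed level of 14 genes of extraembryonic mesoderm, amnion and allantois was likewise highest in mutants 1 and 4, at 3739 and 2643 TPM, against 2293 and 2505 TPM in mutants 2 and 3 and 2054 to 2326 TPM in WT embryos. That list includes genes such as Igf2 and Vim that are not confined to these tissues, and its part in the Foxf1 values was not tested.

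Foxf2 (chromosome 13, 31625816 to 31631403, plus strand) is the close relative of Foxf1 that also acts in palate mesenchyme. Foxf2 was at 7.83, 4.54, 5.22 and 7.80 TPM in mutants 1 to 4, against 9.26, 7.77, 5.10 and 8.34 TPM in WT 1 to 4. Mutants 2 and 3 and WT 3 formed the low end, and only WT 1 and WT 4 were above all mutants. The log2 fold change of Foxf2 was -0.23 ± 0.20 (SE; limma adjusted p = 0.592), and it ran from -0.39 without WT 3 to -0.11 without mutant 2. Both relatives were higher in mutants 1 and 4 than in mutants 2 and 3, but they did not run in parallel over the WT embryos. The ratio of Foxf1 to Foxf2 in TPM was 4.91, 4.79, 4.42 and 6.13 in mutants 1 to 4. In WT 1 to 4 the ratio was 3.15, 2.74, 4.91 and 2.41. WT 3 was thus level with mutant 1, and the other WT embryos lay below every mutant.

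Foxl1 (chromosome 8, 121127940 to 121130644, plus strand) marks mesenchymal cells under the gut epithelium. Foxl1 was at 2.33, 1.32, 0.815 and 3.40 TPM in mutants 1 to 4, against 1.24, 2.17, 1.96 and 2.50 TPM in WT 1 to 4. The highest and the lowest of all 8 values were both mutants. Foxl1 rested on 44 to 175 reads per library, with a log2 fold change of -0.06 ± 0.27 (SE; limma adjusted p = 0.926) and a 95% interval from -0.66 to 0.53. Without mutant 3 its value turned to 0.15.

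Foxf1, Foxc2 and Foxl1 are neighbours on chromosome 8, with the non-coding Fendrr 1275 bases beside Foxf1 on the other strand. Mutant 4 held the highest level of all 8 embryos in each of these 4 genes. Foxc2, a forkhead factor of somites, kidney and vessels, was at 19.7, 20.1, 24.1 and 38.5 TPM in mutants 1 to 4 and at 21.1 to 27.9 TPM in WT embryos. Fendrr, a long non-coding RNA of lateral mesoderm, was at 1.51, 1.42, 0.739 and 2.80 TPM in mutants 1 to 4, against 2.44, 1.30, 1.63 and 1.15 TPM in WT 1 to 4. Mutant 3 was lowest in Fendrr as it was in Foxl1. Mthfsd, the gene of another class in that interval, was at 6.28 to 8.63 TPM in mutants and 8.30 to 9.20 TPM in WT embryos and did not share the peak in mutant 4. An annotated gene on the plus strand, Gm20388, spans both Foxf1 and Foxl1 and lies on their strand. Annotated genes on the minus strand overlap Foxf1 (Gm27530), Foxf2 (Gm27516) and Osr1 (1700022H16Rik), and strand is not marked by the library kit named in the labels. Reads where these genes overlap cannot be told apart.

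The Foxd genes varied least among the forkhead members. Foxd1 (chromosome 13, 98354242 to 98359305, plus strand) is known from kidney stroma, facial mesenchyme, ventral forebrain and temporal retina. It was at 15.2, 13.6, 12.1 and 18.8 TPM in mutants 1 to 4, against 13.8, 14.1, 15.997 and 17.8 TPM in WT 1 to 4. Foxd2 (chromosome 4, 114906282 to 114908873, minus strand), of kidney and facial mesenchyme, was at 12.4, 10.9, 11.9 and 15.5 TPM in mutants 1 to 4, against 12.3, 11.2, 11.6 and 12.5 TPM in WT 1 to 4. Both genes were highest in mutant 4, and the groups overlapped. Their log2 fold changes were -0.05 and 0.07, with 95% intervals from -0.36 to 0.25 for Foxd1 and from -0.17 to 0.31 for Foxd2 (limma adjusted p = 0.862 and 0.757). In WT embryos the coefficient of variation was 5.28% for Foxd2 and 11.9% for Foxd1, beside a median of 6.41% over all tested genes, and in mutants it was 15.5% and 19.5% beside a median of 12.8%.

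**Figure D2:**
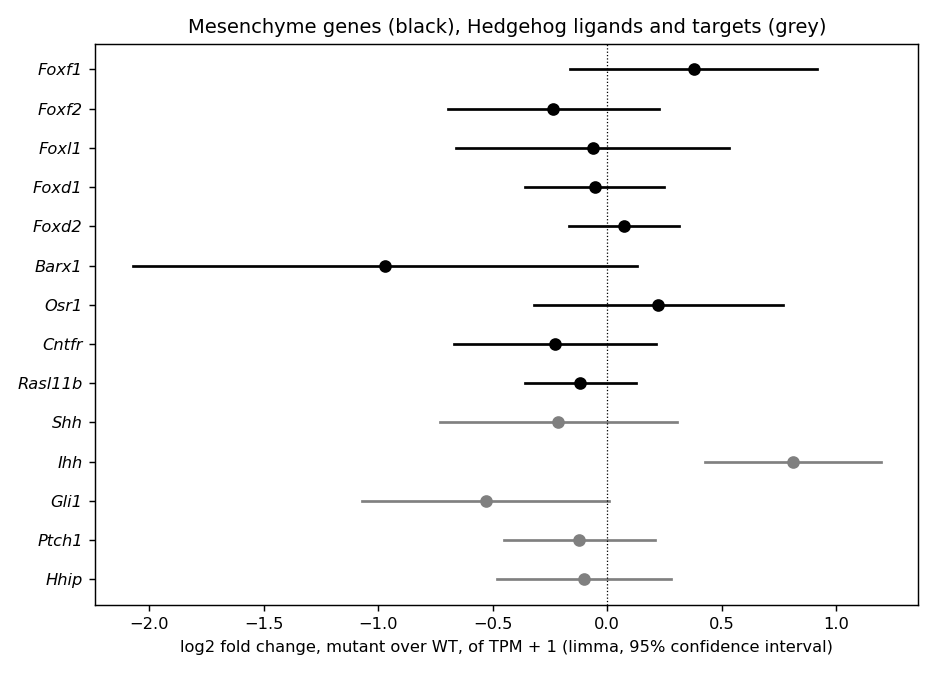
Log2 fold change of mutant over WT on the TPM + 1 scale (x axis) with 95% confidence intervals from limma, for the 9 tested mesenchyme genes (black) and for Hedgehog ligands and targets (grey). Every black interval crosses 0, and that of Barx1 is the widest, from -2.07 to 0.13.

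Barx1 (chromosome 13, 48662998 to 48666507, plus strand) had the widest differences between embryos of all 10 genes, with a highest value 5.58 times the lowest. Barx1 was at 10.6, 9.79, 33.6 and 7.73 TPM in mutants 1 to 4, against 34.7, 43.2, 10.9 and 28.6 TPM in WT 1 to 4. Mutants 1, 2 and 4 lay below every WT embryo, WT 3 lay just above them, and mutant 3 lay among the other WT embryos. The values rested on 206 to 287 reads in the 4 low embryos and 765 to 1121 reads in the 4 high ones. Barx1 averaged 15.4 ± 12.2 TPM in mutants and 29.4 ± 13.7 TPM in WT embryos (SD, n = 4 each), a log2 fold change of -0.97 ± 0.49 (SE; limma adjusted p = 0.403). It was -1.41 without mutant 3 and -1.37 without WT 3, and without any other single embryo it ran from -0.93 to -0.74. The coefficient of variation of Barx1 was 79% in mutants and 46.6% in WT embryos, above those of 99.3% and 98.5% of tested genes in the same group.

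The yolk sac endoderm sum was 1548, 967, 300.8 and 234 TPM in mutants 1 to 4, against 68.0, 89.9, 339.3 and 65.3 TPM in WT 1 to 4. The 4 embryos low in Barx1 all had a higher sum than WT 1, 2 and 4, and mutant 3, high in Barx1, did so too. With the mean of that list as a covariate, the log2 fold change of Barx1 was -0.06 (limma adjusted p = 0.972), with a 95% interval from -1.54 to 1.42. Every mutant had a higher sum than 3 of the 4 WT embryos, so the covariate and the genotype are hard to separate, and the part of yolk sac RNA in the Barx1 values was not tested.

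**Figure D3:**
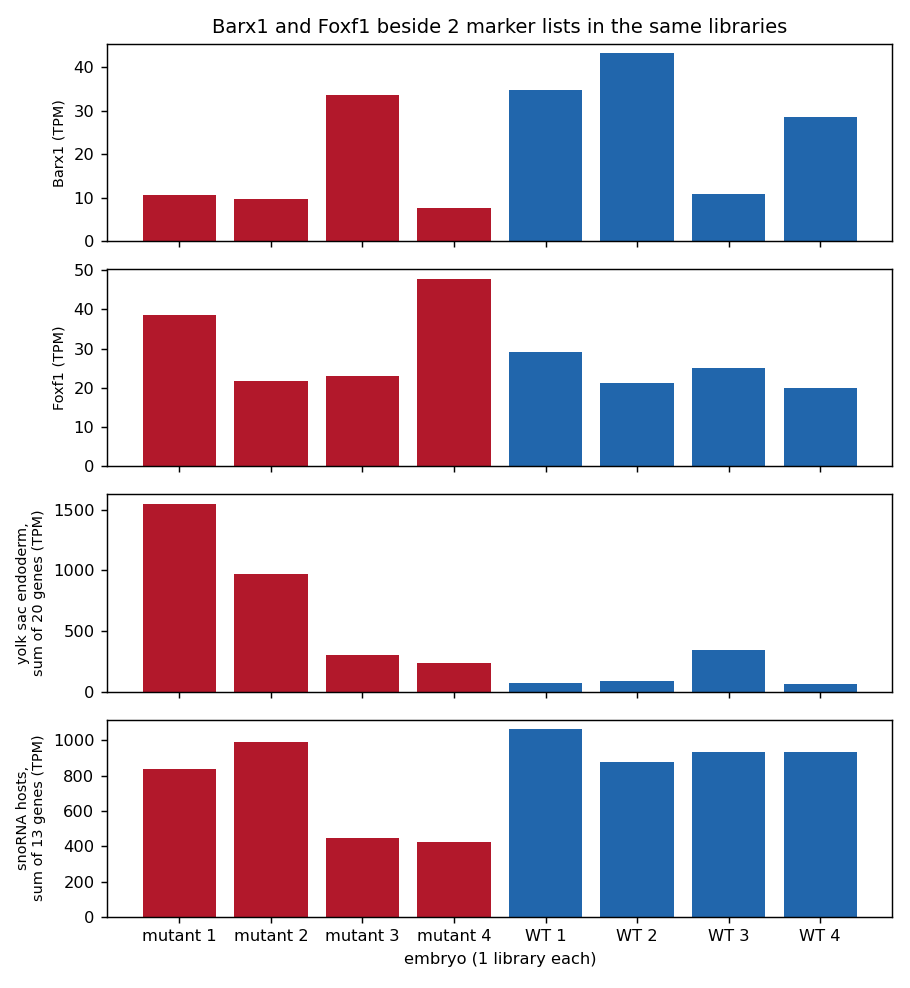
Barx1 and Foxf1 (TPM) in each embryo above the summed TPM of 20 yolk sac endoderm genes and of 13 small nucleolar RNA host genes, with mutants in red and WT in blue and every axis starting at 0. WT 3, at 10.9 TPM of Barx1, has a yolk sac endoderm sum of 339.3 TPM, and mutants 3 and 4 have the lowest host gene sums, at 445.4 and 421.4 TPM.

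The Osr genes, homologues of the Drosophila odd-skipped gene, differed most in level. Osr1 (chromosome 12, 9570116 to 9581500, plus strand) is an early marker of intermediate and lateral mesoderm. Osr1 was at 7.33, 9.34, 11.8 and 19.7 TPM in mutants 1 to 4, against 10.6, 9.62, 9.92 and 8.17 TPM in WT 1 to 4. The mutants reached below and above the WT range. The coefficient of variation of Osr1 was 45.1% in mutants and 10.7% in WT embryos. Over all tested genes the medians were 12.8% and 6.41%, and Osr1 lay above the median in both groups. Its log2 fold change of 0.22 ± 0.24 (SE; limma adjusted p = 0.667) became -0.027 without mutant 4, so that mutant 4 set its sign. Without mutants 1 and 2, the embryos with the highest yolk sac endoderm sums, it was 0.63 (limma adjusted p = 0.0455), but that fit called 24.8% of all tested genes (2.07% higher and 22.7% lower in mutants). Mutants 1 and 2 also held the lowest Osr1 values of the mutants, so leaving them out raises the mutant mean. Osr2 (chromosome 15, 35296098 to 35303305, plus strand), which acts in palate and tooth mesenchyme, was at 0.665, 0.410, 0.470 and 0.551 TPM in mutants 1 to 4, against 0.750, 0.372, 0.484 and 0.622 TPM in WT 1 to 4. These values rested on 25 to 51 reads per library, overlapped throughout and differed in mean log2(TPM + 1) by -0.03.

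Cntfr (chromosome 4, 41657498 to 41697089, minus strand) encodes the ligand-binding subunit of the receptor for ciliary neurotrophic factor, which signals together with the subunits encoded by Lifr and Il6st. Cntfr was at 37.5, 73.9, 65.7 and 63.5 TPM in mutants 1 to 4, against 64.7, 86.3, 60.6 and 65.0 TPM in WT 1 to 4. Mutant 1 lay far below and WT 2 far above the other 6 embryos, which stood between 60.6 and 73.9 TPM. For Cntfr the log2 fold change came to -0.23 ± 0.20 (SE; limma adjusted p = 0.586), and to -0.02 without mutant 1. Il6st was at 32.6, 31.8, 28.8 and 32.1 TPM in mutants 1 to 4, against 23.6, 26.4, 26.4 and 26.0 TPM in WT 1 to 4, so the groups did not overlap. Il6st did not pass the test (log2 fold change 0.28; limma adjusted p = 0.281). Lifr was at 7.82 to 10.5 TPM in mutants and 6.87 to 8.22 TPM in WT embryos. Of 12 genes for ligands, partner subunits and signal carriers of this receptor, 10 were tested, 0 passed at an adjusted p under 0.05, and Il6st alone was higher and 0 were lower at an unadjusted p under 0.05.

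Rasl11b (chromosome 5, 74195286 to 74199481, plus strand) encodes a small GTPase of the Ras family. Rasl11b was at 31.7, 29.4, 26.9 and 22.8 TPM in mutants 1 to 4, against 27.9, 31.1, 27.3 and 33.7 TPM in WT 1 to 4. Mutants 3 and 4, the libraries low in small nucleolar RNA hosts, gave its lowest values. For Rasl11b the log2 fold change came to -0.12 ± 0.11 (SE; limma adjusted p = 0.612), and it was -0.030 without mutant 4 and 0.030 without mutants 3 and 4. Its relative Rasl11a was at 34.0 to 46.1 TPM in mutants and 40.1 to 44.2 TPM in WT embryos. Of 10 related GTPase genes, 1 (Rergl) was at 0 TPM in every embryo, 5 were tested and 0 were called at either threshold.

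The 10 genes did not vary as a block. Mutant 4 was the highest of the 8 embryos in 5 of them, Foxf1, Foxl1, Foxd1, Foxd2 and Osr1, and it was the lowest in Barx1 and Rasl11b. Over all tested genes, mutant 4 was the highest library for 12.2% and mutant 1 for 27%, but mutant 1 was the highest in 0 of the 10. WT 2 was the highest in Barx1 and Cntfr, and WT 3 was neither highest nor lowest in any. Of the other members, Foxd2 lay nearest to Foxf1 in pattern, with a root mean square distance between standardised values over the 8 embryos of 0.633, and Cntfr lay nearest to Barx1, at 1.05. Among all named genes tested, the nearest to Foxf1 were Tubb6 (0.205), Hmga1b (0.254) and Rtl1 (0.267), and the nearest to Barx1 were Mrpl34 (0.279), Rspo2 (0.361) and Apoo (0.370). Rspo2, a secreted enhancer of WNT signalling, was at 2.75, 3.99, 5.53 and 2.57 TPM in mutants 1 to 4, against 5.53, 5.76, 3.42 and 4.87 TPM in WT 1 to 4. Rspo2 was low in the same 4 embryos as Barx1, which follows from its choice by nearness to Barx1.

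**Figure D4:**
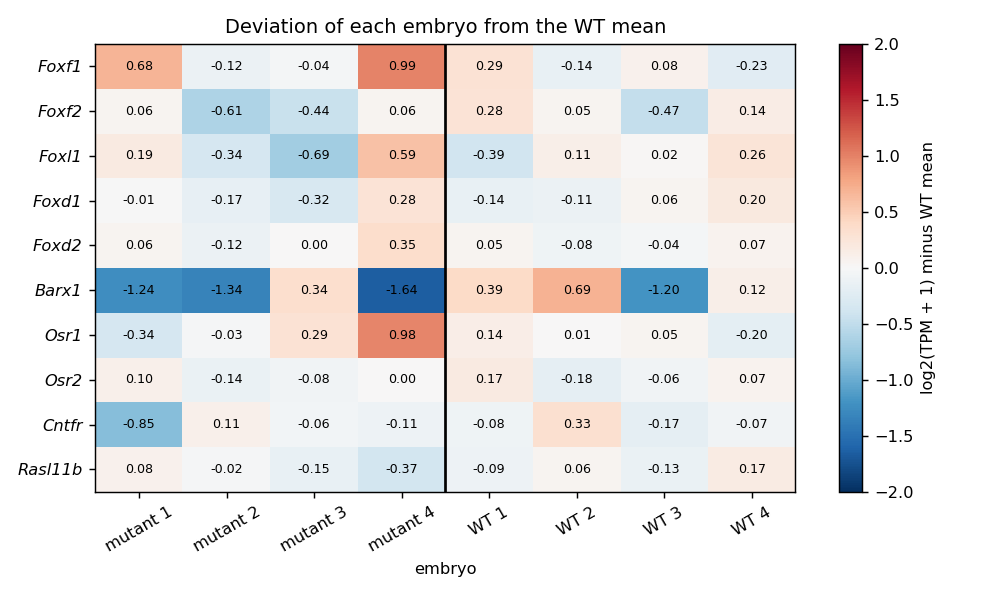
Each embryo's log2(TPM + 1) minus the WT mean for the 10 genes (rows), with mutants left and WT embryos right of the black line, red above and blue below the WT mean. Barx1 is 1.64 below the WT mean in mutant 4, where Foxf1 and Osr1 are 0.99 and 0.98 above it.

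The Hedgehog ligands and the core targets were compared in the same embryos, as values over all tissues of the whole embryo. Shh was at 21.1, 18.9, 10.3 and 22.3 TPM in mutants 1 to 4, against 16.1, 26.7, 19.0 and 21.0 TPM in WT 1 to 4, and Shh and Foxl1 were both lowest in mutant 3. Ihh, made in gut and visceral endoderm, was at 2.42, 1.64, 1.40 and 2.83 TPM in mutants 1 to 4, against 0.629, 0.707, 1.04 and 0.533 TPM in WT 1 to 4. The groups did not overlap for Ihh, which did not pass the test (log2 fold change 0.81, limma adjusted p = 0.281). Among WT embryos only WT 3 reached 1 TPM, so Ihh met the filter for testing through the mutants, where it was high. The yolk sac endoderm sum was also higher on average in mutants. Its part in the Ihh values was not tested. Dhh, with 0.254 to 0.911 TPM over all embryos, was not tested. The targets Gli1, Ptch1 and Hhip had log2 fold changes of -0.53, -0.12 and -0.10, and 0 of them were called at either threshold. Gli1 was at 10.7 to 28.9 TPM in mutants and 25.8 to 30.1 TPM in WT embryos, and mutant 3, its lowest embryo, was the mutant with Barx1 at 33.6 TPM.

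Other genes of the tissues in which the members act were read from lists chosen with the members. Of 18 genes of gut and splanchnic mesenchyme, 0 passed at an adjusted p under 0.05, and 5 were higher and 0 lower at an unadjusted p under 0.05, with a median log2 fold change of 0.20. The 5 were Pdgfra, Hand2, Zfpm2, Wnt2b and Wnt2. Zfpm2 was under 1 TPM in every WT embryo, so it entered the test only through the mutants, where it was high. Pdgfra, a growth factor receptor of mesenchyme, was at 34.2 to 39.1 TPM in mutants and 26.4 to 34.1 TPM in WT embryos. Wnt2, a ligand of foregut mesenchyme, was at 59.7, 25.4, 35.1 and 35.2 TPM in mutants 1 to 4, against 28.4, 20.4, 25.4 and 26.0 TPM in WT 1 to 4, and it lay highest in mutant 1. Hand2, a factor of lateral mesoderm and heart, was at 45.1 to 67.2 TPM in mutants and 31.8 to 49.2 TPM in WT embryos, and Zfpm2, a cofactor of GATA proteins, at 1.19 to 2.09 TPM in mutants and 0.855 to 0.960 TPM in WT embryos. Hand2 and Zfpm2 are also expressed in heart, whose 12 markers summed to 1918 to 3916 TPM in mutants and 1272 to 1857 TPM in WT embryos. The part of heart tissue in the values of Hand2 and Zfpm2 was not tested.

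Of 17 tested genes of face and pharyngeal arch mesenchyme, 0 passed, and 1 was higher and 2 lower at an unadjusted p under 0.05, with a median log2 fold change of -0.06. Among the lower ones was Alx4, a homeobox factor of the frontonasal region, and the higher one was Prrx2, a homeobox factor of limb and face mesenchyme. Alx4 was at 14.5 to 22.5 TPM in mutants and 22.3 to 25.4 TPM in WT embryos (log2 fold change -0.33; limma adjusted p = 0.324). Lhx8, a LIM homeobox factor of the first arch and ventral forebrain, was at 1.03, 0.869, 1.37 and 0.270 TPM in mutants 1 to 4, against 1.70, 3.06, 0.650 and 4.53 TPM in WT 1 to 4. Like Barx1, Lhx8 was lower in WT 3 than in the other WT embryos, and it was lowest in mutant 4. Of 13 genes of intermediate mesoderm and kidney anlage, 0 passed, and 1 was higher and 2 lower at an unadjusted p under 0.05. The higher one was Pax8 and the lower ones were Emx2 and Hoxd11. Emx2, a homeobox factor of the urogenital ridge and forebrain, was at 6.40 to 10.7 TPM in mutants and 12.5 to 16.5 TPM in WT embryos. The forebrain and eye list, with which Emx2 and Foxd1 share tissue, summed to 87.9 to 130.5 TPM in mutants and 124.0 to 166.5 TPM in WT embryos, and its part in these values was not tested.

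Among 39 other forkhead genes 29 were tested, and 0 passed at an adjusted p under 0.05, with 5 higher and 2 lower at an unadjusted p under 0.05 and a median log2 fold change of 0.04. The higher ones were Foxh1, Foxa3, Foxi3, Foxo1 and Foxo3, and Foxj1 was among the lower ones. Foxa3 was under 1 TPM in every WT embryo, so it met the filter only through the mutants, where it was high. Foxh1, a partner of SMAD proteins in Nodal signalling, was at 13.5 to 20.6 TPM in mutants and 5.03 to 11.7 TPM in WT embryos. Foxa3, of gut and yolk sac endoderm, was at 1.11 to 2.05 TPM in mutants and 0.366 to 0.846 TPM in WT embryos. The forkhead neighbours of Foxf2 on chromosome 13 overlapped between the groups: Foxc1 was at 17.7 to 22.0 TPM in mutants and 19.0 to 22.0 TPM in WT embryos, and Foxq1 was at 0.197 to 0.531 TPM in mutants and 0.351 to 0.517 TPM in WT embryos.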

How the data were processed

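RNA of 8 whole embryos was sequenced (TruSeq kit, NovaSeq, per the labels' protocols). The authors deposited 1 table of TPM per gene symbol, each library summing to 1000000, on build GRCm38 (mm10), per the submitters' processing notes; the aligner, counter, annotation and strand setting are not stated. All 8 columns were matched by name. Positions come from GENCODE M21, which held 91.1% of symbols. Read numbers are TPM times merged exon length over each library's step; 97.7% of 22992 genes, all 10 members among them, were whole within 0.02 reads. Limma 3.58.1 in R 4.3.3 fitted log2(TPM + 1), with a trend and genotype as the only term, and was tested on simulated data. Exact permutation tests used all 70 assignments. Members, lists and alternatives were chosen with earlier results of these data known. Named are the members, Hedgehog ligands and targets, chosen relatives and forkhead neighbours, the 3 nearest patterns of Foxf1 and Barx1, and up to 4 genes of smallest p per list; Wnt2, Lhx8, Mthfsd, Foxd2os and Il11ra1 were picked with their values in view. Alternatives were pseudocounts, filters, scaling, no trend, array weights, a replicate block, a yolk sac covariate, left-out embryos and, chosen after seeing the data, voom on recovered reads. Some genes of the lists are not reported here.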

Additional observations from a re-analysis of the deposited data

Results flagged for a closer look

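Of 48 groups of 4 embryos checked for 24 genes, 4 held a value far from the other 3 in its group, and chance gives about 1 in 20. Barx1 was at 33.6 TPM in mutant 3, against 7.73 to 10.6 TPM in the other mutants. Cntfr was at 86.3 TPM in WT 2, against 60.6 to 65.0 TPM in the other WT embryos. Hhip was at 2.45 TPM in WT 1, against 3.20 to 3.25 TPM in the other WT embryos. Il6st was at 23.6 TPM in WT 1, against 26.0 to 26.4 TPM in the other WT embryos.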

How the results depend on the processing

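No gene was called at an adjusted p under 0.05 with all embryos under any pseudocount, filter, scaling, weighting, block, covariate or voom fit tried. Leaving out 1 embryo at a time gave 0 genes higher and 0 to 1 lower, the 1 being Gm28230 without mutant 2 (log2 fold change -1.52, limma adjusted p = 0.0334). Without mutants 3 and 4, 3 genes were called higher (Gsn, Prap1 and Gpx3, all 4 named after their values were seen), and without mutants 1 and 2, 282 were higher and 3087 lower. The number at an unadjusted p under 0.05 was 1842 with all embryos, 3094 without mutant 2, 1158 without WT 1 and 3511 with array weights. Among the members, the only call in any of these settings was Osr1, higher without mutants 1 and 2 (log2 fold change 0.63, limma adjusted p = 0.0455). With 1 embryo left out, the count of members with a log2 fold change below 0 ran from 4 to 8 of 9, and their median from -0.17 to 0.034. Signs turned over these fits for Foxl1 (-0.28 to 0.15), Foxd1 (-0.17 to 0.034), Foxd2 (-0.019 to 0.14) and Osr1 (-0.027 to 0.41). Without mutants 3 and 4 they turned for Foxd2 (-0.031), Osr1 (-0.18) and Rasl11b (0.030), and with the yolk sac covariate for Foxf2 (0.091) and Cntfr (0.089), and the cause was not tested. Foxf1 and Barx1 kept their signs in all settings run, from 0.18 to 0.54 and from -1.41 to -0.06. The exact permutation p of the 10 members ran from 0.143 to 0.886, where the smallest possible is 0.0286. Deviations of same-numbered embryos from their group means correlated at -0.06, 0.04, -0.19 and -0.25. Litters are not labelled, so pairing by litter could not be checked. With the replicate block the log2 fold change of Barx1 was -0.97 (limma adjusted p = 0.464). Depth limits Osr2 and Foxl1 most.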

Other observations

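Genes that lie beside the members in the annotation were read as values. Foxd2os, the non-coding gene 383 bases from Foxd2, was at 7.35, 5.44, 4.37 and 4.51 TPM in mutants 1 to 4, against 7.58, 6.43, 6.93 and 7.09 TPM in WT 1 to 4, and did not follow Foxd2, which was highest in mutant 4. Il11ra1, which encodes an interleukin receptor subunit and lies 2899 bases from Cntfr, was at 14.4 to 21.6 TPM in mutants and 16.3 to 20.4 TPM in WT embryos, and was highest in mutant 1, the embryo lowest in Cntfr.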
